A study of Mus musculus with 4 samples.

Results

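Interferon-stimulated effector genes encode the antiviral proteins that cells make after type I or type II interferon binds its receptor. They were compared here between plasmacytoid dendritic cells (pDCs) with and without Flt3. The members are 47 gene symbols taken from the known interferon response, with the Ifitm, Gbp, Irf, Stat and Usp18 genes left aside. Of these, 42 had a probe set annotated to that symbol alone, out of 19938 genes measured in that way, and each of the 42 was read by 1 probe set. Isg15, Oas1g, Irgm2 and Igtp were represented only by probe sets that carry several gene symbols, and Ifi44 was not analysed here, so these 5 have no value below.

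Cells of WT mice and of Flt3 KO mice at steady state were sorted from the spleen as mature pDCs, and total RNA of 2 biological replicates per genotype was hybridised to whole-transcript GeneChip arrays, 1 array per replicate. Flt3 encodes the receptor for FLT3 ligand, a cytokine of dendritic cell development. The labels do not say which Flt3 allele was used, nor the strain, age and sex of the mice, the sorting gate or how many animals went into a replicate. Each p-value rests on these samples and on a variance shared across genes. How far it covers the spread between single mice is not known.

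Interferons signal through receptors bound to JAK kinases, and the STAT and IRF factors that follow bind short motifs in the promoters of these genes. Their products sense viral RNA and DNA, cut or edit RNA, block translation, modify proteins with ISG15 or ADP-ribose, or attack vacuoles that hold microbes. pDCs are known as a cell type that makes large amounts of type I interferon, and interferon-stimulated genes have a basal level in many resting immune cells.

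The log2 intensity of Flt3 itself was 10.71 and 10.77 in WT against 8.46 and 8.61 in Flt3 KO, lower where the label says so. The pDC markers Siglech, Bst2 and Tcf4 did not pass the test, with differences of −0.13, −0.074 and −0.043. Of the 11 measured pDC markers, 6 fell and 0 rose, where over all genes 1.31% fell and 1.08% rose. Those that fell were Cox6a2 (−0.76), Tlr7 (−0.49), Spib (−0.47), Ccr9 (−0.43), Irf8 (−0.31) and Ly6d (−0.25). The summed linear intensity of the 11 was 38390 and 38030 in WT against 33100 and 33200 in Flt3 KO. Of 18 measured monocyte and macrophage markers 5 rose and 0 fell, with sums of 5249 and 4855 in WT against 5935 and 7651 in Flt3 KO. Of 6 plasma cell markers 1 rose (Jchain, 1.20) and 2 fell (Mzb1, −0.53, and Xbp1, −0.25). Of 10 conventional dendritic cell markers 1 rose (Dpp4, 0.29) and 0 fell. Markers of B cells, T cells, NK cells and neutrophils had 0 rises and 0 falls. No marker had an intensity of 0 in any array. Their part in the results below was not tested, and in sorted bulk samples fewer cells of a type and less RNA per cell cannot be told apart.

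The promoters of the members that the results turn on are shown here, because these genes are grouped by their response to factors that bind such sequences. Sequences are from RefSeq on GRCm38.p6 and read 5′ to 3′ along the gene's strand. The first group shows the 250 bases before the start of the gene that fell furthest, Oasl1 (chr5:114922990-114923239, plus strand), and of the gene that rose, Ifi44l (chr3:151762892-151763141, minus strand). The last 100 bases before its immediate neighbour Ifi44 (chr3:151749911-151750010, minus strand) follow. Capitals mark matches to AANNGAAA, an IRF-type motif, on either strand (TTTCNNTT on the other); there were 3, 2 and 3 in the stretches shown.
Oasl1: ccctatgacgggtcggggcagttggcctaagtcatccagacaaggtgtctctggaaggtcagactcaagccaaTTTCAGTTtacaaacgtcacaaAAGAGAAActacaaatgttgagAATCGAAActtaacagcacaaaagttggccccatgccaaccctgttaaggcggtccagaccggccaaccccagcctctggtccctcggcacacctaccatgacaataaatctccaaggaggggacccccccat
Ifi44l: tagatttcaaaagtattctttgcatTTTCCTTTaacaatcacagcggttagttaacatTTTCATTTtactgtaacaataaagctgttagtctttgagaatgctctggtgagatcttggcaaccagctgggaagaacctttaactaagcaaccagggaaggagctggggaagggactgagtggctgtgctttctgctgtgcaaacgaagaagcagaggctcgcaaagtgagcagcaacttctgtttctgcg
Ifi44: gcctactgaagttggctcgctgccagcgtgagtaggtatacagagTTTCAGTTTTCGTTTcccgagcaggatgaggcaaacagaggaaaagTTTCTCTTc

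The longer motif GAAANNGAAA (TTTCNNTTTC on the other strand), the core of the interferon-stimulated response element, contains AANNGAAA, so each of its matches is also a match of the shorter one. The second group shows 30-base windows around it in 4 members that lay on different sides of 0. These are Oas3 (chr5:120777715-120777744, minus strand), Ifit1 (chr19:34640794-34640823, plus strand), Ifit3 (chr19:34583397-34583426, plus strand) and Slfn5 (chr11:82951937-82951966, plus strand). Capitals mark the longer motif.
Oas3: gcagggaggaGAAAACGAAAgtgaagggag
Ifit1: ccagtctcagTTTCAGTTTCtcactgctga
Ifit3: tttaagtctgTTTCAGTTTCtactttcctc
Slfn5: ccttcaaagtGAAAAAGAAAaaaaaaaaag

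Promoters of 37 of the 47 members were in the RefSeq table, which gives 250 bases before and 50 after each start, and 10 members, Ifi27l2a and Mx1 among them, had no entry. The longer motif was found in 20 of 47 member promoters (42.6%), some genes having several starts, against 3.44% of all 32851 promoters. The shorter one was found in 34 of the 47 (72.3%), against 23.9% of all. Of the measured members, 14 had the longer motif, of which 11 lay below 0 (Flt3 KO minus WT) with a median difference of −0.13, and 18 did not, of which 12 lay below 0 with a median of −0.093. The motif was therefore found on both sides of 0, as in Ifit1 (difference −0.27) and Ifit3 (0.13) of the same cluster. For the shorter motif the order of the medians was the reverse, −0.10 over the 26 measured members that had it and −0.13 over the 6 that did not. These are matches of letters and not measured binding.

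Differences below are Flt3 KO minus WT in log2 intensity, tested with limma over all 19938 genes, and a gene is said to rise or fall where the Benjamini-Hochberg adjusted p was under 0.05. Among the 42 members 1 rose, Ifi44l, and 2 fell, Oasl1 and Ifi27l2a. Over all genes 1.08% rose and 1.31% fell. The other 39 members did not pass. At an unadjusted p under 0.05 there were 3 higher and 8 lower members, 7.14% and 19.0% of the 42, against 6.95% and 10.1% of all genes. Both Flt3 KO arrays lay above both WT arrays in 9 members, where the share of all genes was 21.9%, and below them in 14 members (33.3% of the 42), where it was 25.3%.

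**Figure D1:**
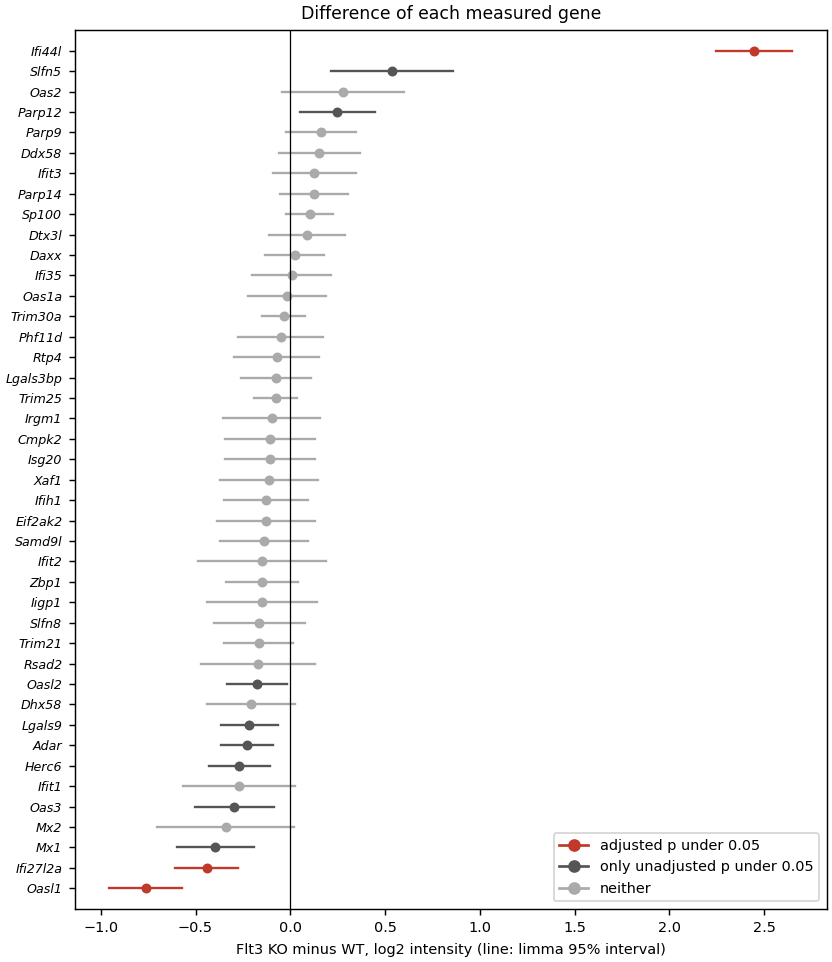
Flt3 KO minus WT difference in log2 intensity for each of the 42 measured genes, sorted, with limma's 95% interval as a line and colour for the test passed. Ifi44l at 2.45 stands far to the right of the others, Oasl1 (−0.76) and Ifi27l2a (−0.44) are the called genes on the left, and most other intervals cross 0.

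Most members had a difference below 0. Over the 42 members the median size of the difference, sign left aside, was 0.15, and that of the gap between the WT arrays 0.10. Over all genes these were 0.097 and 0.092. The difference was below 0 in 30 of 42 members (71.4%), against 50.3% of all genes, and its median was −0.11, against −0.0010 over all genes. Of the 42 members 33 lay above the median intensity of all genes, and the shares over all genes were not matched for intensity. The median relative to the WT mean was −0.10 in Flt3 KO replicate 1 and −0.089 in Flt3 KO replicate 2. WT replicate 2 was above WT replicate 1 in 29 of 42 members (69.0%; 49.9% of all genes), with a median gap of 0.10, and it was the highest of the 4 arrays in 21 of 42 members (24.0% of all genes). Without WT replicate 2 the median difference was −0.039, and without WT replicate 1 it was −0.15. Between the Flt3 KO arrays replicate 2 was above replicate 1 in 22 of 42 members (51.0% of all genes), with a median gap of 0.027.

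**Figure D2:**
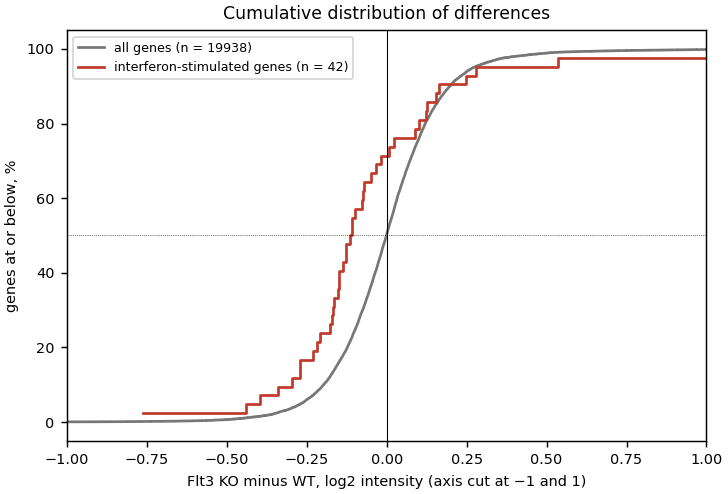
Percent of genes at or below each Flt3 KO minus WT difference (log2 intensity, axis from −1 to 1), for the 42 members and all 19938 genes. The member curve lies to the left of the curve of all genes below 0, with medians of −0.11 and −0.0010, and the curves meet on the right, where Ifi44l lies beyond the axis.

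**Figure D3:**
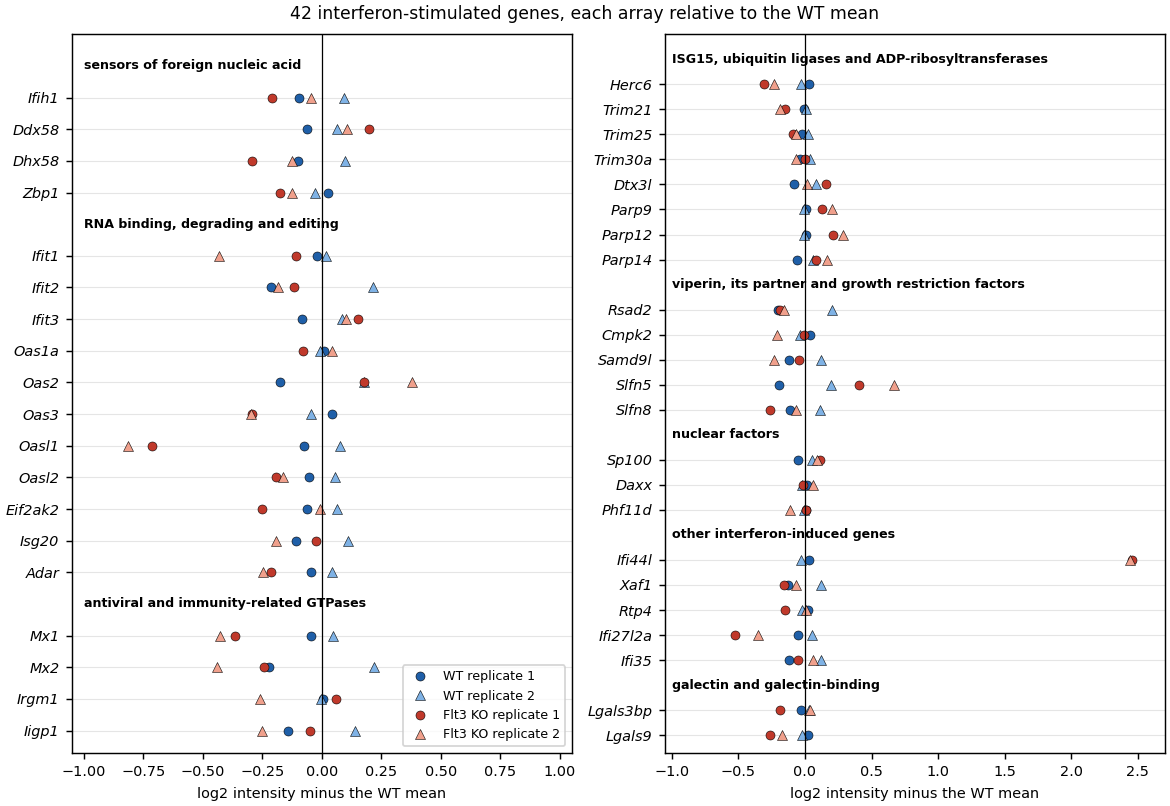
Log2 intensity of the 42 members in each array minus the WT mean, grouped by function; circles are replicate 1 and triangles replicate 2, blue WT and red Flt3 KO. The WT triangle is the rightmost point in 21 genes. Both red points lie to the left of both blue ones in 14 genes, most widely for Oasl1, Mx1 and Ifi27l2a. They lie to the right in 9 genes, most widely for Ifi44l and Slfn5.

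Among the 4 sensors of foreign nucleic acid, 0 passed in limma, also at an unadjusted p under 0.05, with 3 differences below 0 and 1 above. Dhx58, which encodes LGP2, a helicase that modulates its relatives, had the lowest p of the group. It gave 7.18 and 7.38 in WT against 6.98 and 7.15 in Flt3 KO, and its difference was −0.21 (SE 0.099, adjusted p = 0.34). The values of the genotypes did not overlap, but the gap between them was small beside the spread of each pair. Ddx58, the gene of RIG-I, lay on the other side of 0, at 6.17 and 6.29 in WT against 6.43 and 6.34 in Flt3 KO (difference 0.15, SE 0.090, adjusted p = 0.44). Ifih1, the gene of the long double-stranded RNA sensor MDA5, and Zbp1, whose product binds Z-form nucleic acid, had differences of −0.13 and −0.15.

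The 11 measured genes of RNA binding, degradation and editing had 1 fall, 0 rises and 10 that did not pass. At an unadjusted p under 0.05 in limma 4 were lower (Oas3, Oasl1, Oasl2 and Adar) and 0 higher, where the shares of all genes were 10.1% and 6.95%. The median difference was −0.15 (−0.065 without WT replicate 2 and −0.23 without WT replicate 1). The gene that fell was Oasl1, a catalytically inactive member of the oligoadenylate synthetase family whose product is known to restrain translation of Irf7 mRNA. Its log2 intensity was 7.94 and 8.09 in WT against 7.30 and 7.20 in Flt3 KO. Both Flt3 KO arrays lay well below both WT arrays. The means were 8.02 ± 0.11 and 7.25 ± 0.071 (SD, n = 2), and Oasl1 fell by 0.76 in log2 intensity (SE 0.082, limma adjusted p = 0.0085), a 1.70-fold difference. In the 9 alternatives that kept all 4 arrays Oasl1 passed, with a limma adjusted p from 0.0027 to 0.036. With any 1 array left out the difference stayed between −0.84 and −0.69. The call was lost in these fits, as it was for most genes called with all 4 arrays.

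Oasl2, the immediate neighbour of Oasl1 and its closest relative among the members, differed by −0.18 (SE 0.068, adjusted p = 0.25). Its 95% interval ran from −0.34 to −0.017, which does not reach the interval of Oasl1, −0.96 to −0.57; the difference between the pair was not tested. The synthetases proper, which make the oligoadenylates that activate RNase L, went both ways. Oas3 gave 5.90 and 5.81 in WT against 5.56 and 5.56 in Flt3 KO (difference −0.30, SE 0.089, adjusted p = 0.15). Oas2, which adjoins Oas3, gave 5.23 and 5.58 in WT against 5.58 and 5.78 in Flt3 KO (difference 0.28, SE 0.14, adjusted p = 0.36). Its higher WT value came within 0.0029 of its lower Flt3 KO value. Both were dim, below or near 5.89, the median log2 intensity of all genes; no measure of background came with the values. Oas1a, for which near-identical copies exist that can share probe signal, differed by −0.018.

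The Ifit genes encode proteins that bind foreign RNA and block its translation. Ifit1 (−0.27), Ifit2 (−0.15) and Ifit3 (0.13) lie in 1 cluster and none passed (adjusted p = 0.33, 0.66 and 0.55). The means of Ifit1 and Ifit2 were below 5.89 in both genotypes, and Ifit3 has a near-identical copy. Ifit2 is 1 of the genes that the WT arrays set apart, at 5.66 in replicate 1 and 6.10 in replicate 2, and its difference turned to 0.065 without WT replicate 2. Adar, the gene of an RNA-editing enzyme, differed by −0.23 (SE 0.059, adjusted p = 0.11) with both Flt3 KO arrays below both WT arrays. Eif2ak2, the gene of the translation-blocking kinase PKR, and the exonuclease gene Isg20 had differences of −0.13 and −0.11 with overlapping values.

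All 4 measured GTPase genes had a difference below 0, with a median of −0.25; 0 of 4 passed in limma, and 1, Mx1, had an unadjusted p under 0.05. The median was −0.11 without WT replicate 2, −0.15 without Flt3 KO replicate 2, −0.34 without Flt3 KO replicate 1 and −0.37 without WT replicate 1. Mx1 encodes a dynamin-like GTPase that blocks influenza and related viruses, and many inbred mouse strains carry a defective copy. It gave 6.25 and 6.34 in WT against 5.93 and 5.87 in Flt3 KO. The genotypes did not overlap, and the difference was −0.40 (SE 0.087) with an adjusted p of 0.076. Mx1 passed in 2 of 13 alternatives. These were each array centred on its median (−0.43, limma adjusted p = 0.041) and only genes above the median intensity tested (0.040). Among the others, the limma adjusted p was 0.11 without the intensity trend and 0.125 with all probe sets tested together. With 1 array left out the difference stayed between −0.44 and −0.35. The Flt3 KO values of Mx1 lay close to 5.89, the median log2 intensity of all genes. Mx2 gave 5.79 and 6.23 in WT against 5.77 and 5.57 in Flt3 KO (difference −0.34, SE 0.15, adjusted p = 0.32), and its WT replicate 1 was only 0.020 above its higher Flt3 KO value. Both Flt3 KO values of Mx2 were below 5.89. The immunity-related GTPase genes Irgm1 and Iigp1, whose products act on vacuoles of intracellular microbes, differed by −0.098 and −0.15 with overlapping values.

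Of the 8 measured genes of the ISG15, ubiquitin and ADP-ribose systems 0 passed, and 4 lay above and 4 below 0; 1 higher and 1 lower had an unadjusted p under 0.05 in limma. Herc6 and the 3 Trim genes lay below. Herc6, the main ligase for ISG15 in mice, gave 8.10 and 8.04 in WT against 7.76 and 7.83 in Flt3 KO. Its values did not overlap (difference −0.27, SE 0.068, adjusted p = 0.11). Trim21, a cytosolic antibody receptor, Trim25, a ligase that acts on RIG-I, and Trim30a, a regulator of inflammatory signalling from a family of near-identical genes, differed by −0.17, −0.078 and −0.035.

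The 3 ADP-ribosyltransferase genes and the ubiquitin ligase gene Dtx3l lay above, and the difference between these sets was not tested. Parp12 gave 5.99 and 5.97 in WT against 6.19 and 6.27 in Flt3 KO, with no overlap (difference 0.25, SE 0.085, adjusted p = 0.20). Parp9 and Parp14 differed by 0.16 and 0.12, again with both Flt3 KO arrays above both WT arrays. Dtx3l, whose product forms a complex with that of Parp9 and whose gene adjoins Parp9 and Parp14, differed by 0.087 with overlapping values. None of the 4 passed, and the difference of Dtx3l was 0.0028 without WT replicate 1.

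Viperin (Rsad2), which makes a chain-terminating nucleotide, its neighbour Cmpk2 and the growth restriction genes Samd9l, Slfn5 and Slfn8 had 0 of 5 that passed in limma and 1, Slfn5, with an unadjusted p under 0.05. Slfn5, a schlafen family gene, had the second largest positive difference of the members. It gave 7.78 and 8.17 in WT against 8.38 and 8.64 in Flt3 KO. The Flt3 KO arrays were both higher, but the arrays of each genotype also differed among themselves. The difference was 0.54 (SE 0.14, adjusted p = 0.11), with a 95% interval from 0.21 to 0.86. The Flt3 KO array with more Slfn5, replicate 2, was also the array with the higher sum of monocyte and macrophage markers, 7651 against 5935. In the WT pair the order was the opposite, as WT replicate 2 had more Slfn5 but the lower sum, 4855 against 5249. Their part was not tested. Slfn8, which has near-identical relatives, lies close to Slfn5 with 1 protein-coding gene between them and differed by −0.16 (SE 0.10), below 0 where Slfn5 was above.

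Rsad2 showed how far the WT arrays stood apart. It gave 7.10 and 7.50 in WT against 7.11 and 7.14 in Flt3 KO, so WT replicate 1 was level with both Flt3 KO arrays and only WT replicate 2 was above them. Its difference of −0.17 (SE 0.13, adjusted p = 0.55) turned to 0.029 without WT replicate 2. Samd9l, which restrains viral translation, differed by −0.14 and Cmpk2, a mitochondrial nucleotide kinase, by −0.11, both with overlapping values.

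Genes of nuclear factors stayed near 0, with 0 of 3 that passed in limma, also at an unadjusted p under 0.05. Sp100, a component of nuclear bodies with related gene copies, gave 10.46 and 10.56 in WT against 10.62 and 10.60 in Flt3 KO (difference 0.10, SE 0.053, adjusted p = 0.39). Daxx, a histone chaperone of the same bodies, differed by 0.024 with a 95% interval from −0.13 to 0.18, and its sign turned when arrays were centred on their medians (−0.014). Phf11d, a member of a family of similar genes, was below 5.89 in both genotypes. It gave 5.13 and 5.12 in WT against 5.14 and 5.02 in Flt3 KO, a difference of −0.051.

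The group of other interferon-induced genes held 1 rise and 1 fall among 5 measured. Ifi44l is an interferon-induced gene of the same family as its neighbour Ifi44. Its log2 intensity was 4.78 and 4.71 in WT against 7.20 and 7.19 in Flt3 KO. WT values lay below the median of all genes, and both Flt3 KO values lay above it and 0.013 apart. The means were 4.74 ± 0.047 and 7.19 ± 0.0094 (SD, n = 2) and the difference 2.45 (SE 0.085, limma adjusted p = 0.00011), the second largest positive difference of all 19938 genes. No fold is given because the WT values lay below that median and no measure of background came with them. Ifi44l passed in 11 of 13 alternatives, but not without WT replicate 1 or WT replicate 2, where the differences were 2.48 and 2.41. With 16 added to each intensity its difference was 1.92. The 11 include the test of only genes above the median intensity. Because its WT values lay below that median, Ifi44l was kept there only through its Flt3 KO values. That alternative is therefore not independent of the rise. The Flt3 KO arrays, whose monocyte and macrophage sums were 5935 and 7651, differed by 0.013 in Ifi44l; the part of these cells was not tested.

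Ifi27l2a, of a family of small interferon-induced membrane proteins, fell. It gave 10.26 and 10.36 in WT against 9.78 and 9.95 in Flt3 KO, with means of 10.31 ± 0.070 and 9.87 ± 0.12 (SD, n = 2). The values did not overlap, and Ifi27l2a fell by 0.44 in log2 intensity (SE 0.071, limma adjusted p = 0.028), a 1.36-fold difference. The call was lost with any 1 of the 4 arrays left out (adjusted p = 0.12 to 0.31, differences from −0.52 to −0.35), without the intensity trend (0.12) and with all probe sets tested together (0.065). Xaf1, an antagonist of an apoptosis inhibitor, the receptor chaperone gene Rtp4 and Ifi35 differed by −0.11, −0.072 and 0.0067 and did not pass. The sign of Ifi35 turned when arrays were centred on their medians (−0.031).

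Lgals9, the gene of galectin-9, a secreted lectin, gave 8.75 and 8.71 in WT against 8.47 and 8.56 in Flt3 KO. The genotypes did not overlap, and the difference was −0.22 (SE 0.064, adjusted p = 0.15). Lgals3bp, whose secreted product binds a related galectin, differed by −0.075 with overlapping values.

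**Figure D4:**
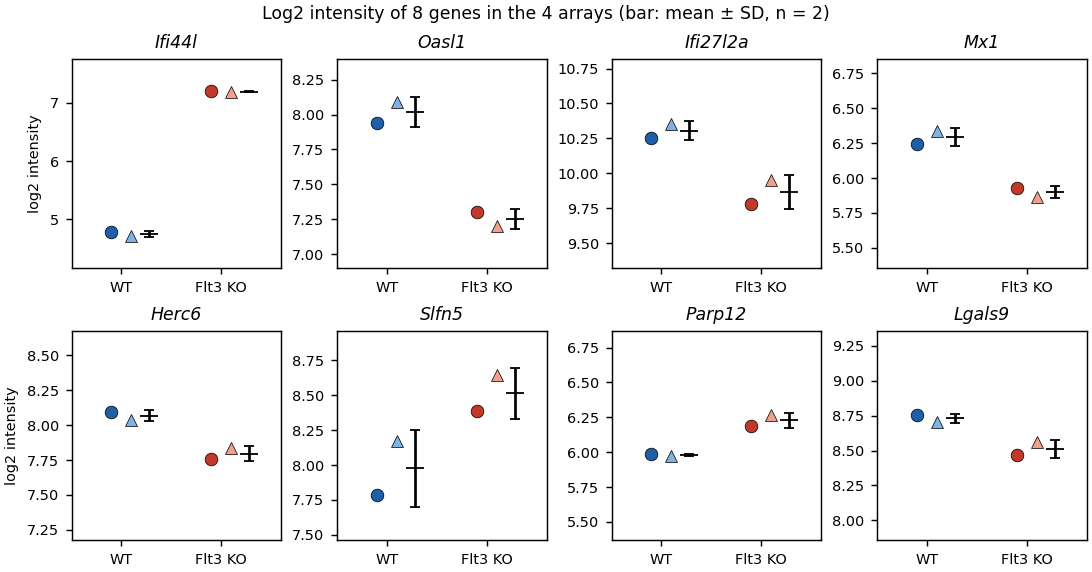
Log2 intensity of 8 genes in the 4 arrays, blue for WT and red for Flt3 KO, circles for replicate 1 and triangles for replicate 2, with the mean and SD (n = 2) beside each pair. The vertical axis spans the same log2 range in all panels except the Ifi44l panel, which is wider; the genotypes do not overlap in any of the 8, and Slfn5 has the widest spread within a genotype.

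Members that lie side by side in the genome did not all share a direction. Oas2 and Oas3 (0.28 and −0.30), Ifit2 and Ifit3 (−0.15 and 0.13) and the nearby Slfn5 and Slfn8 (0.54 and −0.16) lay on opposite sides of 0. Oasl1 and Oasl2 (−0.76 and −0.18), Rsad2 and Cmpk2 (−0.17 and −0.11), and Dtx3l with Parp9 and Parp14 (0.087, 0.16 and 0.12) lay on the same side. These are descriptions of single differences, of which only that of Oasl1 passed.

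Other genes of the interferon pathway were read through 31 measured genes of a list of 33. The list holds Usp18 and Irf genes, which were left aside from the members, so it is not only upstream of them. In it 2 rose, 2 fell and 27 did not pass, where 1.08% of all genes rose and 1.31% fell. Its median difference was −0.037, against −0.0010 over all genes. Jak2, a kinase of the interferon-gamma receptor and of many cytokine receptors, rose by 0.69 (SE 0.070, adjusted p = 0.0071), from 8.71 and 8.81 in WT to 9.39 and 9.52 in Flt3 KO. Socs3, a feedback inhibitor of cytokine receptors, rose by 0.56 (SE 0.090, adjusted p = 0.028). Usp18, which removes ISG15 and brakes the type I receptor, fell by 0.46 (SE 0.070, adjusted p = 0.023), and Irf7, the factor that drives interferon-alpha production, fell by 0.30 (SE 0.058) at an adjusted p of 0.049995, the edge of the threshold. These 4 calls were lost in each fit without 1 of the arrays, where the differences ranged from 0.63 to 0.75 for Jak2, 0.44 to 0.68 for Socs3, −0.51 to −0.41 for Usp18 and −0.37 to −0.23 for Irf7. With all arrays kept, Socs3, Usp18 and Irf7 lost the call without the intensity trend (adjusted p = 0.092, 0.076 and 0.19) and with all probe sets tested together (0.065, 0.054 and 0.10). Socs3 also lost it when its probe sets were averaged (0.33, adjusted p = 0.069). Irf7 also lost it with 16 added to each intensity (adjusted p = 0.052) and with the replicate number fitted as a block (0.063).

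The receptor chains of type I interferon did not pass. Ifnar1 differed by −0.082 with a 95% interval from −0.18 to 0.021, and Ifnar2 by −0.096 with an interval from −0.20 to 0.0088. Stat2 and Irf9, partners in the complex that binds the longer motif, differed by −0.053 and −0.089 and did not pass. The interferon genes themselves were dim. Of 5 measured, Ifnb1 among them, 4 lay at or below the median of all genes, 0 passed, and the differences ran from −0.12 to 0.20.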

How the data were processed

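The authors deposited 1 intensity value for each of 30177 probe sets on each array, on a linear scale. Which background correction, summarisation and scaling they used is not given in the labels or the file. Per the labels, RNA was amplified with an Ambion kit and labelled with biotin. Names of probe sets came from the platform annotation, in which 21789 had 1 symbol, 1621 several and 6767 none. Of a gene's probe sets the one with the highest mean was kept, which left 19938 genes. The intensity was converted to log2 with no constant added and no filter. Differences between genotypes were fitted in R 4.3.3 by limma 3.58.1 (lmFit, eBayes with an intensity trend, no covariate), with Benjamini-Hochberg adjustment over the 19938 genes. On simulated data of 19938 genes for this comparison, 71.0% of 200 genes changed by 1 on the log2 scale were recovered, with 1 false call. Smaller changes were not simulated. Only 1 of the 42 members differed by 1 or more and 28 by under 0.2, so this share says nothing about recovery at their sizes. An exact two-sided permutation test of 2 against 2 arrays cannot go below 0.3333, so calls rest on the variance shared across genes; for arrays, their number limits the precision. No detection call was used.

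The members, their functional groups and the pathway and marker lists were chosen with earlier results of these data known, so no list test was run. Values in every array are given for members past the threshold and, in each group, for those with the lowest p or the largest difference in each direction. The array values of Oas3, Ifit2 and Mx2 were added after they were seen, and the other members are given by their differences. Genes of the pathway list were matched by symbol or RefSeq synonym. All 42 measured members carried the same symbol in the RefSeq table.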

Additional observations from a re-analysis of the deposited data

How the results depend on the processing

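With 1 array left out the fit had 1 residual degree of freedom, and the lone array of a genotype was assumed to vary like the other pair. In these fits the members called higher numbered 0 to 1 and those called lower 0, with 9 to 11 members at an unadjusted p under 0.05 in limma; over all genes 0 to 45 were called higher and 0 to 9 lower, and of the pathway list 0 in both directions. The median difference of the members ranged from −0.15 to −0.039. Of the 13 alternatives 6 leave the differences of the members as they are and 7 change them. In those 7 the sign of 30 of the 42 members held, but 5 of the 30 came within 0.02 of 0 with 1 array left out: Dtx3l (0.0028), Eif2ak2 (−0.0056), Cmpk2 (−0.0091), Iigp1 (−0.0098) and Samd9l (−0.018). The differences of the other 12, none of which passed, ranged with 1 array left out from −0.37 to 0.065 for Ifit2, −0.081 to 0.044 for Oas1a, −0.22 to 0.00058 for Isg20, −0.26 to 0.061 for Irgm1, −0.073 to 0.0042 for Trim30a, −0.37 to 0.029 for Rsad2, −0.016 to 0.064 for Daxx, −0.11 to 0.0081 for Phf11d, −0.24 to 0.010 for Xaf1, −0.15 to 0.0051 for Rtp4, −0.11 to 0.12 for Ifi35 and −0.19 to 0.039 for Lgals3bp. With arrays centred on their medians Daxx was at −0.014 and Ifi35 at −0.031, and 452 genes were called lower over all genes.

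Without the intensity trend 1 member was called lower, with 61 genes higher and 47 lower over all genes, and 1 higher and 0 lower of the pathway list. With all probe sets tested together the numbers were 1 member lower, 140 and 151 over all probe sets, and 1 and 0 of the pathway list. With only genes above the median intensity 3 members were called lower and 440 genes over all genes; fewer genes were tested, and 4 of the pathway list were lower. With 16 added 1 of the pathway list was lower, and with probe sets averaged 1 was higher. The cause was not tested in these other cases. The labels number the replicates 1 and 2 in both genotypes but give no pairing. The changes from replicate 1 to 2 correlated across genes between genotypes at only −0.017, and genes are not independent. With the replicate block 2 members were called higher, Ifi44l and Slfn5 (adjusted p = 0.018), and 2 lower, and of the pathway list 1 was lower. The number of arrays limits every comparison.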
